A study of Mus musculus with 10 samples.

Results

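Foxa1, Foxa2, Foxa3, Foxq1 and Foxd3 are 5 genes of the forkhead family, transcription factors that share a winged-helix DNA-binding domain. Every probe annotated to one of these symbols was taken, which gave 6 of the 25697 probes on the array, with 2 for Foxa2 and 1 for each other gene. The cells were mouse embryonic stem cells of the line KH2 with a doxycycline-inducible transgene for Sox17 with a V5 tag, and total RNA was hybridised to 10 Illumina bead arrays. The arrays titled Sox17(+) 1 to 5 are labelled as Sox17-V5 expressing, with 48 h of doxycycline, and those titled Sox17(-) 1 to 5 are labelled as non-induced controls of the same line. Replicate numbers in the sample descriptions restart at titles 4 and 5 of each label. Titles 1 to 3 are here called run 1 and titles 4 and 5 run 2, which are names for this numbering and not a stated batch. The labels do not say that the replicates came from independent cultures, and every p-value here refers to the spread among these arrays, which may be technical.

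Foxa proteins are pioneer factors, able to bind their sites in closed chromatin, and are known for roles in endoderm and its derivatives such as liver. Foxq1 is a forkhead factor known for hair shaft differentiation and for expression in epithelia. Foxd3 is known for maintenance of pluripotent cells in the early mouse embryo and for neural crest specification. Sox17 is an HMG-box factor of endoderm.

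The start regions of Foxa1 and Foxa3 are shown because these 2 Foxa genes had signal well above background and behaved unlike each other. Each window runs from 250 bases before to 50 bases after a RefSeq start in GRCm38.p6, read on the gene's own strand. Capitals mark matches to a forkhead motif, TGTTTAC, and to the SOX motifs AACAAAG and AACAATG, searched on both strands.
Foxa1, chr12:57546062-57546361, minus strand: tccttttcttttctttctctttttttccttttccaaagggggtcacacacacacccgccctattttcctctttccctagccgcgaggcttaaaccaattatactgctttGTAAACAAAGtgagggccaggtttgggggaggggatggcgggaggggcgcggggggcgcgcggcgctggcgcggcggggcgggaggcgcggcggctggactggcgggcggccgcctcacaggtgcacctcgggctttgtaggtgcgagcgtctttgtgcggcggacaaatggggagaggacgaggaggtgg
Foxa3, chr7:19023490-19023789, minus strand: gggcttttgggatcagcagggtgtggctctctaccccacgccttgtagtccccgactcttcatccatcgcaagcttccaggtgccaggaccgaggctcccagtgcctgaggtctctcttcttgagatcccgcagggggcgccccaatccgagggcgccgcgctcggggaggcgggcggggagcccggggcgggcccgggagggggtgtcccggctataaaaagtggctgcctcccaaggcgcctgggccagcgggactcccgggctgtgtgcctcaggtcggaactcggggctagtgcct
The Foxa1 window held 1 forkhead match, on the reverse strand 141 to 135 bases before the start, and 1 match to AACAAAG 138 to 132 bases before it, so that the matches overlap and form 1 run of capitals. The start used for Foxa1 lies inside the annotated gene, whose outer end is at 57548029, while that of Foxa3 is at the gene's outer end. The Foxa3 window held 0 matches, as did 3 windows of Foxa2 and 1 of Foxd3. No window was available for Foxq1. Of 32851 start windows of the same length in the table, 3.65% held TGTTTAC, 5.85% held AACAAAG and 3.78% held AACAATG. These matches describe letters only. The annotated genes lie on chromosome 12 from 57540628 to 57548029 (Foxa1), chromosome 2 from 148042877 to 148046969 (Foxa2), chromosome 7 from 19013283 to 19023539 (Foxa3), chromosome 13 from 31558170 to 31560976 (Foxq1) and chromosome 4 from 99656299 to 99658671 (Foxd3). The place of each probe within its gene is not given in the files used here.

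The signal of the Sox17 probes did not follow the labels, being highest on Sox17(+) 1 and lowest on Sox17(+) 2 to 5. The brighter probe read 67.3 on Sox17(+) 1 and 11.99 to 16.65 on Sox17(+) 2 to 5. It read 60.6 and 65.3 on Sox17(-) 4 and 5 and 30.5 to 32.6 on Sox17(-) 1 to 3. The dimmer probe read 42.85 on Sox17(+) 1 and -2.30 to 4.74 on Sox17(+) 2 to 5. It read 32.2 and 35.4 on Sox17(-) 4 and 5 and 6.11 to 19.2 on Sox17(-) 1 to 3. Whether these probes read RNA of the transgene is not given, and the groups below are named as labelled. The files do not settle which titles belong to induced cells, and the direction of every difference between the labels is that of the deposited titles. Sox17(+) 2 to 5 also stood apart from the other 6 arrays in the background pattern of 1357 chemosensory receptor probes (rank correlation 0.769 to 0.802 among these 4 arrays and 0.352 to 0.493 with the other 6), and they are called the second set and the other 6 the first set. Over all tested probes Sox17(+) 1 correlated best with Sox17(-) 4 (r = 0.995). Label and array set therefore nearly coincide, and run 2 against run 1 was compared within each label with Sox17(+) 1 left out and its values given beside. Markers of pluripotent cells were present on all arrays, with 5 of 5 (Pou5f1, Nanog, Sox2, Zfp42 and Esrrb) tested and a summed intensity of 24259 to 28468 on arrays labelled Sox17(+) and 25119 to 27401 on arrays labelled Sox17(-). Intensities are on the authors' normalized linear scale, background is taken to end at 10.6, and differences are on the scale of log2(intensity + 16) with their SE. Tests covered the 14985 probes, for 10087 genes, with an intensity over 10.6 on at least 5 arrays, among them those of Foxa1 (above it on 8 arrays), Foxq1 (9) and Foxa3 (10) but neither Foxa2 probe (1 and 0) nor the Foxd3 probe (0).

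Foxa1 was high on 5 arrays and low on the other 5, a division that cut across the labels. Probe ILMN_1237195 read 129.1 and 125.3 on Sox17(+) 4 and 5, 4.59 and 2.55 on Sox17(+) 2 and 3, and 184.5 on Sox17(+) 1. On the arrays labelled Sox17(-) it read 178.9 and 181.7 on Sox17(-) 4 and 5 and 13.5, 23.8 and 21.9 on Sox17(-) 1 to 3. Under the label Sox17(+), run 2 was at least 11.99-fold above Sox17(+) 2 and 3, both of which lay under the background limit. Under the label Sox17(-), run 2 was 9.40-fold above run 1. Sox17(+) 1, a run 1 title, read with Sox17(-) 4 and 5. In bulk RNA, fewer cells that express a gene and less of its RNA per cell cannot be told apart.

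**Figure D1:**
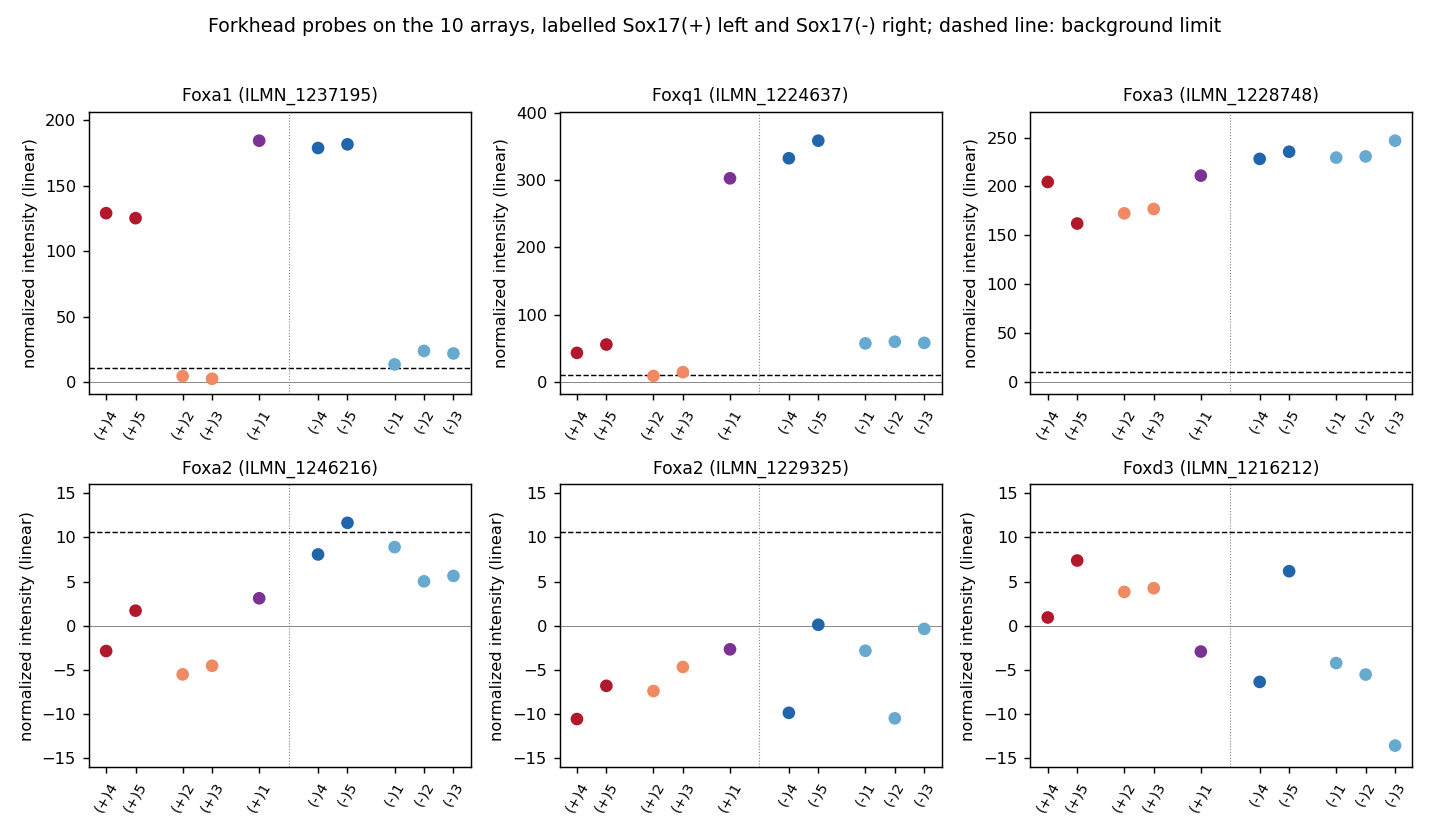
Normalized intensity (linear scale, 1 panel per probe) of the 6 forkhead probes on each array, with arrays labelled Sox17(+) left of the dotted line and those labelled Sox17(-) right of it, run 2 before run 1 and Sox17(+) 1 in purple. Each point is 1 array and the dashed line is the background limit of 10.6. Foxa1 and Foxq1 are high on Sox17(+) 1 and Sox17(-) 4 and 5, Foxa1 is also high on Sox17(+) 4 and 5, Foxa3 lies between 162 and 247 everywhere, and 1 value of the Foxa2 and Foxd3 probes lies above the limit.

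Foxq1 shared the high arrays of Foxa1 under the label Sox17(-) but was low on all of Sox17(+) 2 to 5. Probe ILMN_1224637 read 43.4 and 55.8 on Sox17(+) 4 and 5, 9.15 and 14.8 on Sox17(+) 2 and 3, and 303 on Sox17(+) 1. It read 332 and 358 on Sox17(-) 4 and 5, and 57.5, 59.98 and 58.3 on Sox17(-) 1 to 3. Its levels thus run from Sox17(-) 4 and 5 with Sox17(+) 1 at the top, through Sox17(-) 1 to 3 and Sox17(+) 4 and 5, whose ranges are neighbours without overlap, to Sox17(+) 2 and 3. Under the label Sox17(+), run 2 was at least 3.93-fold above run 1, of which Sox17(+) 2 lay under the background limit. Under the label Sox17(-), run 2 was 5.89-fold above run 1.

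Of the 3 tested forkhead genes, Foxa1 and Foxq1 rose in run 2 against run 1 under each label with Sox17(+) 1 left out. Foxa3 passed the test in neither comparison. Genes, run groups and the leaving out of Sox17(+) 1 were chosen with earlier results of these data known. The p-values and ranks below therefore describe these arrays and are no independent test. Over all tested probes 7.48% were called under the label Sox17(+), 3.14% as higher in run 2, and 9.26% under the label Sox17(-), 4.64% as higher. The arrays of the runs did not overlap for either gene under either label, as was so, with run 2 higher, for 23.9% of tested probes under the label Sox17(+) and 21.2% under the label Sox17(-). Foxa1 rose by 2.87 ± 0.14 under the label Sox17(+) (limma, adjusted p = 1.29e-05, n = 2 and 2) and by 2.47 ± 0.13 under the label Sox17(-) (limma, adjusted p = 1.1e-05, n = 2 and 3). The size for Foxa1 under the label Sox17(+), where run 1 lay under the background limit, depends on the added constant (4.13 with 4 added, 1.501 with 64). It ranked 6 of 10087 genes from the highest difference under the label Sox17(-). Foxq1 rose by 1.23 ± 0.13 under the label Sox17(+) (limma, adjusted p = 0.000546) and by 2.28 ± 0.11 under the label Sox17(-) (limma, adjusted p = 9.72e-06), ranking 10 of 10087 genes under Sox17(-). With 4 and 64 added, its difference under the label Sox17(+) was 1.76 and 0.58. Foxa3 stood at 0.06 ± 0.11 and -0.02 ± 0.10 (limma, adjusted p = 0.843 and 0.925). With Sox17(+) 1 kept in run 1, as its description has it, neither gene was called: Foxa1 stood at 1.75 under the label Sox17(+) (limma, adjusted p = 0.387) and at 2.47 under the label Sox17(-) (adjusted p = 0.199), and Foxq1 at 0.06 (adjusted p = 0.984) and 2.28 (adjusted p = 0.260), the fits then sharing the spread between Sox17(+) 1 and its run.

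The test of whether the run difference itself differs between the labels called neither gene. For Foxq1 the run difference under the label Sox17(+) minus that under Sox17(-) was -1.04 ± 0.17 (limma, adjusted p = 0.115), and 0.0133% of all tested probes were called. It was called when 64 was added before log2 (-1.16, adjusted p = 4.77e-05) and with an intensity trend and robust prior (-1.04, adjusted p = 0.0135). For Foxa1 it was 0.40 ± 0.19 (limma, adjusted p = 0.446).

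**Figure D2:**
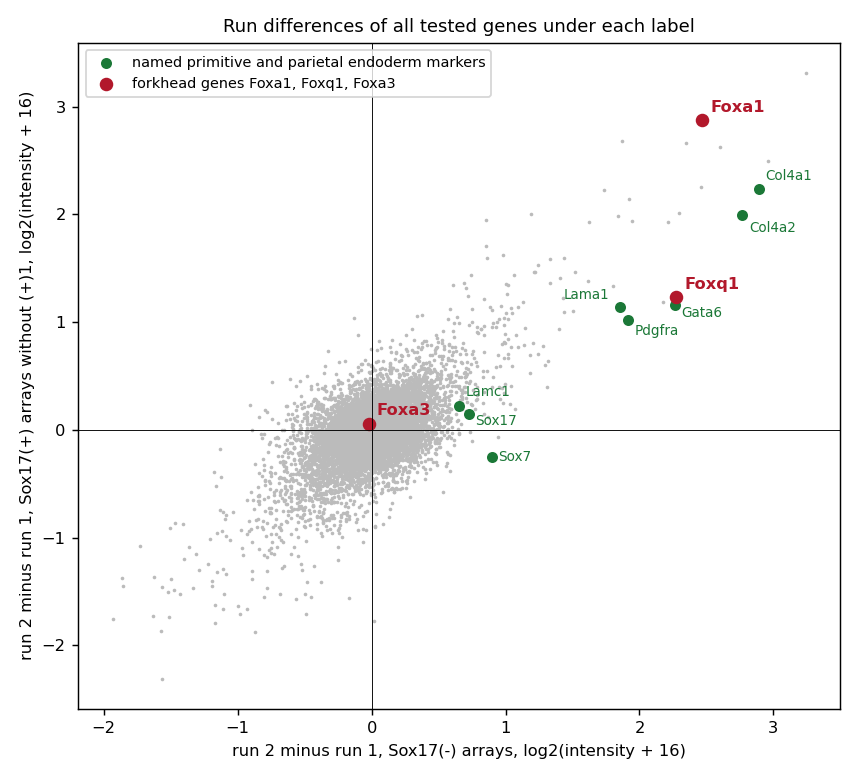
Run 2 minus run 1 on the log2(intensity + 16) scale for each of 10087 tested genes, under the label Sox17(-) on the horizontal axis and under the label Sox17(+) without Sox17(+) 1 on the vertical axis. Each grey point is a gene, red points are the tested forkhead genes and green points named endoderm markers. Foxa1 (2.47 and 2.87) and Foxq1 (2.28 and 1.23) lie to the upper right, Foxa3 (-0.02 and 0.06) near the origin.

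Foxa3 was nearly even over the arrays and slightly lower on those labelled Sox17(+). Probe ILMN_1228748 read 205 and 162 on Sox17(+) 4 and 5, 172 and 177 on Sox17(+) 2 and 3, and 211 on Sox17(+) 1. On the arrays labelled Sox17(-) it read 228 and 235 on Sox17(-) 4 and 5 and 229, 231 and 247 on Sox17(-) 1 to 3. The labels did not overlap, with means of 185.4 ± 21.2 on arrays labelled Sox17(+) and 234.1 ± 7.58 on those labelled Sox17(-) (SD, n = 5 each). Over all tested probes 3.68% lay lower without overlap on the arrays labelled Sox17(+).

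Between the labels over all 10 arrays, Foxa3 was the 1 called gene of the 3 tested, beside 19.5% of all tested probes called and 10.4% called lower. Foxa3 fell by 0.32 ± 0.09 on the log2 scale (limma, adjusted p = 0.0314), a 1.27-fold lower level. The call was lost without any one of Sox17(-) 1, 2, 3 or 5 or Sox17(+) 2, 3, 4 or 5 (differences of -0.28 to -0.35, limma adjusted p = 0.0535 to 0.0759), and it was kept without Sox17(-) 4 or Sox17(+) 1. It was also lost without a filter on dim probes (limma, adjusted p = 0.0533). In a fit blocked on array set, which rests on Sox17(+) 1, Foxa3 stood at -0.14 (limma, adjusted p = 0.912). Foxa1 averaged 89.2 ± 81.6 on arrays labelled Sox17(+) and 84.0 ± 88.0 on those labelled Sox17(-) (SD, n = 5 each), and on the log2 scale the means were 6.11 and 6.135, a difference of -0.03 ± 0.80 (limma, adjusted p = 0.985), so that the sign depends on the scale. Foxq1 averaged 85.2 ± 123 and 173 ± 157 on arrays labelled Sox17(+) and Sox17(-), a difference of -1.14 ± 0.71 that did not pass (limma, adjusted p = 0.249). Without Sox17(+) 1 the Foxq1 difference was -1.72 and passed (limma, adjusted p = 0.0333).

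Inside each run, with Sox17(+) 1 left out, all 3 tested genes were lower under the label Sox17(+), where label and array set cannot be told apart. With Sox17(+) 1 kept, the fit of run 1 alone called 0 of the 3 genes, with Foxa1 at 0.26, Foxq1 at -0.25 and Foxa3 at -0.32 (limma, adjusted p = 0.883, 0.891 and 0.207). Of all tested probes 38.1% were called inside run 2, 20.0% as lower, and 41.1% inside run 1 without Sox17(+) 1, 21.1% as lower. Foxq1 fell by 2.47 ± 0.13 inside run 2 (limma, adjusted p = 2.28e-05), with Sox17(+) 4 and 5 7.01-fold below Sox17(-) 4 and 5, and ranked 3 of 10087 genes from the lowest. Inside run 1 it fell by 1.42 ± 0.11 (limma, adjusted p = 0.000128), with Sox17(+) 2 and 3 at least 4.68-fold below Sox17(-) 1 to 3. Foxa1 fell less, by 0.46 ± 0.14 inside run 2 (limma, adjusted p = 0.0309), or 1.42-fold, and by 0.86 ± 0.13 inside run 1 (limma, adjusted p = 0.00117), or at least 1.81-fold. Foxa3 fell by 0.32 ± 0.11 inside run 2 (limma, adjusted p = 0.0469) and by 0.40 ± 0.10 inside run 1 (limma, adjusted p = 0.0130), calls made in the fit of 4 groups over 9 arrays. In the fit of run 2 alone Foxa3 stood at -0.32 and was not called (limma, adjusted p = 0.122), while Foxq1 and Foxa1 were. Primitive endoderm markers were lower in the same comparisons, 5 of 6 inside run 2 (median -1.29) and 4 of 6 inside run 1 (median -0.56), among them Pdgfra (-1.95 ± 0.13 and -1.05 ± 0.12) and Sox7 (-1.64 ± 0.09 and -0.49 ± 0.08). Sox17 itself was among those called lower in both. Of 8 parietal endoderm markers 5 fell inside run 2, and 2 rose and 1 fell inside run 1. Visceral endoderm markers went more the other way, as 2 of 5 rose and 1 fell inside each run. Of 4 definitive endoderm markers 1 rose inside run 2 and 2 inside run 1, and 0 fell. Over all genes 16.1% rose inside run 2 and 18.6% inside run 1. The part of these markers in the result was not tested. These comparisons inside runs were added after seeing the data.

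**Figure D3:**
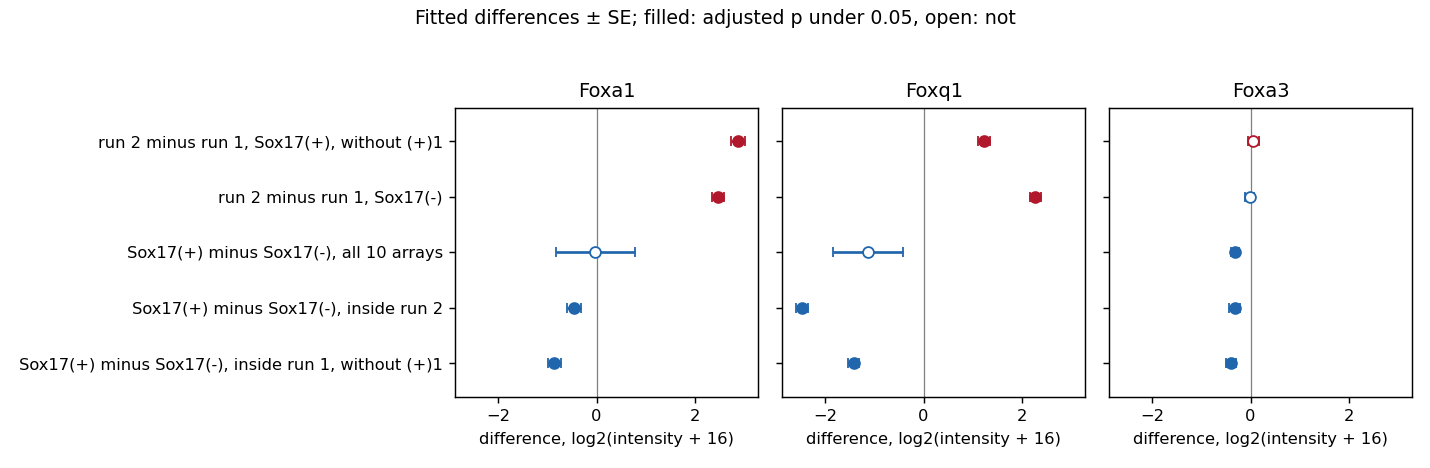
Fitted differences of the 3 tested forkhead genes on the log2(intensity + 16) scale, with bars of 1 SE, for 5 comparisons. Filled points passed at an adjusted p under 0.05 (limma) and open points did not, and red points are above 0 and blue points below. The bars of Foxa1 (0.80) and Foxq1 (0.71) between the labels over all 10 arrays are wider than in the other comparisons (0.10 to 0.14 for all 3 genes).

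Foxa2, the Foxa gene of node, notochord and early endoderm, gave no signal well above background. Probe ILMN_1246216 read 3.10 on Sox17(+) 1 and -5.52 to 1.70 on Sox17(+) 2 to 5, against 5.02 to 11.6 on the arrays labelled Sox17(-). Of these values 1, on Sox17(-) 5, lay above the limit, so no fold is given. The labels did not overlap for this probe, and the exact permutation test over the 252 arrangements of the 10 arrays gave p = 0.00794 (two-sided), the smallest it can give. The test thus orders values within background, and the array sets did not overlap either, with at most 1.70 in the second set and at least 3.10 in the first. The other Foxa2 probe, ILMN_1229325, read -10.6 to -2.68 on arrays labelled Sox17(+) and -10.5 to 0.101 on arrays labelled Sox17(-), with an exact permutation p of 1. A level under the limit does not show that the gene was silent.

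Foxd3 was under the background limit on all 10 arrays. Probe ILMN_1216212 read between -2.94 and 7.38 on arrays labelled Sox17(+) and between -13.6 and 6.17 on arrays labelled Sox17(-), groups that overlap (exact permutation p = 0.325, two-sided). No fold is given.

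Foxa1 and Foxq1 were set beside the other forkhead genes on the array. Of 39 listed, 36 had a probe and 18 were tested. In run 2 against run 1, 0 rose and 1 fell under the label Sox17(+), and 0 rose and 3 fell under the label Sox17(-), with medians of -0.06 and -0.02 beside -0.01 and -0.01 over all genes. Over all genes 3.35% rose and 5.01% fell under the label Sox17(+), and 5.02% and 5.03% under the label Sox17(-). Foxn4, a factor of retinal and spinal progenitors, fell by 0.89 ± 0.11 (limma, adjusted p = 0.00132) and by 0.50 ± 0.10 (limma, adjusted p = 0.0136). Foxn3 fell under the label Sox17(-) (-0.36 ± 0.09), and Foxl1 was called lower there with Sox17(-) 4 and 5 under the background limit, so no size is given. Between the labels over all arrays 4 rose and 3 fell, beside 8.43% and 11% of all genes. Among them Foxj1, the factor of motile cilia, rose by 0.80 ± 0.19 and Foxk1 by 0.69 ± 0.16, Foxr1, under the limit on 4 of 5 arrays labelled Sox17(-), was also called higher, and Foxn3 fell by 0.73 ± 0.16. These are differences that also coincide with the array set, since Foxj1 read 59.5 to 69.6 on Sox17(+) 2 to 5, 27.0 on Sox17(+) 1 and 16.02 to 31.9 on arrays labelled Sox17(-).

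Partners and targets of Foxa factors in endoderm were counted in the same way. Of 27 listed, 24 had a probe and 15 were tested. In run 2 against run 1, 3 rose and 1 fell under the label Sox17(+), and 7 rose and 1 fell under the label Sox17(-), with medians of -0.07 and 0.09. Among all genes, 3.35% rose and 5.01% fell under Sox17(+), and 5.02% rose and 5.03% fell under Sox17(-). Gata6, a zinc-finger factor of primitive endoderm, rose by 1.16 ± 0.14 under the label Sox17(+) (limma, adjusted p = 0.00143) and by 2.27 ± 0.13 under the label Sox17(-) (limma, adjusted p = 1.85e-05). Its intensities were 171 and 172 on Sox17(+) 4 and 5, 66.4 and 69.1 on Sox17(+) 2 and 3 and 406 on Sox17(+) 1, against 420 and 454 on Sox17(-) 4 and 5 and 67.3 to 97.8 on Sox17(-) 1 to 3. The coagulation inhibitor gene Tfpi rose by 0.77 ± 0.12 and 1.04 ± 0.11 under the labels Sox17(+) and Sox17(-). Otx2 rose under the label Sox17(-) by 1.03 ± 0.12, as did Sox7 by 0.90 ± 0.08, and the apolipoprotein gene Apoe rose under the label Sox17(+) by 0.55 ± 0.12, beside 0.86 under the label Sox17(-). Cdx2 fell by 0.91 ± 0.16 under the label Sox17(+) and was also called lower under the label Sox17(-) (limma, adjusted p = 0.0186), with Sox17(-) 4 and 5 under the limit. The liver and yolk sac products Ttr, Afp, Alb and Fgb, and Shh, Lhx1 and Gsc, lay under the background limit on all 10 arrays.

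Some markers of primitive and parietal endoderm were also called higher in run 2, and their part in the result was not tested. The shares of all genes that rose and fell were 3.35% and 5.01% under the label Sox17(+) and 5.02% and 5.03% under Sox17(-). Of 6 primitive endoderm markers, all tested, 2 rose under the label Sox17(+) (Gata6 and Pdgfra) and 5 under the label Sox17(-), with medians of 0.27 and 0.81, and 0 lay under the limit on all arrays. Sox17 itself was among the 5. Gata4, Gata6, Sox7 and Sox17 also stand in the list of Foxa partners and targets, so the counts of these lists share genes. Sox7 read 60.2 and 59.2 on Sox17(+) 4 and 5, against 72.3 and 76.5 on Sox17(+) 2 and 3. The summed intensity of the 6 was 432 to 452 on Sox17(+) 4 and 5, 304 to 311 on Sox17(+) 2 and 3 and 1244 on Sox17(+) 1, against 1188 to 1286 on Sox17(-) 4 and 5 and 453 to 524 on Sox17(-) 1 to 3. Of 8 tested parietal endoderm markers, 3 rose under the label Sox17(+) and 4 under the label Sox17(-), led by the basement membrane genes Col4a1 (2.24 ± 0.13 and 2.89 ± 0.12) and Col4a2 (2.00 ± 0.09 and 2.77 ± 0.08). The summed intensity of the 10 on the array, of which Thbd lay under the limit throughout, was 10895 to 11014 on Sox17(+) 4 and 5, 6728 to 7072 on Sox17(+) 2 and 3 and 16577 on Sox17(+) 1, against 15456 to 16903 on Sox17(-) 4 and 5 and 7015 to 7189 on Sox17(-) 1 to 3. Of 5 tested visceral endoderm markers 1 rose and 1 fell under the label Sox17(+) and 1 rose under the label Sox17(-), while 0 of 4 definitive endoderm markers were called under either. Of 4 notochord and floor plate markers on the array, tissues where Foxa2 is active, Shh and Nog lay under the limit on all arrays, and Chrd, the 1 tested, rose under the label Sox17(-) (0.57 ± 0.15). Of 4 tested fibroblast markers Thy1 fell under both labels (-0.72 ± 0.12 and -0.75 ± 0.11), and of 4 tested trophoblast markers 1 rose and 1 fell under each.

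Foxd3 is known from pluripotent cells and neural crest, and the lists for these were read beside its background signal. Of 20 genes of its network in pluripotent cells, 18 were tested. In run 2 against run 1, 2 rose and 5 fell under the label Sox17(+), and 3 rose and 5 fell under the label Sox17(-). Beside them, 3.35% of all genes rose and 5.01% fell under Sox17(+), and 5.02% and 5.03% under Sox17(-). The Nodal inhibitor gene Lefty2 fell under both (-1.04 ± 0.09 and -0.89 ± 0.08), as did the POU factor gene Pou3f1 (-1.11 ± 0.10 and -0.77 ± 0.09). Among the risers, Dppa3 rose by 1.03 ± 0.09 under the label Sox17(+) and Otx2 by 1.03 ± 0.12 under the label Sox17(-). Of 15 neural crest genes 12 had a probe and 5 were tested. Of these, 1 rose (Tfap2a) and 1 fell (Ngfr, -0.77 ± 0.10) under the label Sox17(+), and 0 were called by limma under the label Sox17(-). Tfap2a lay under the background limit on Sox17(+) 2 and 3, so no size is given. Sox9, Pax3, Pax7 and Zic1 lay under the limit on all arrays. The summed intensity of the 12 was 469.8 to 481 on Sox17(+) 4 and 5, 681 to 696 on Sox17(+) 2 and 3 and 415 on Sox17(+) 1, against 396 to 417 on Sox17(-) 4 and 5 and 418 to 433 on Sox17(-) 1 to 3.

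The genes whose profile lay nearest to Foxa1 were the matrix gene Olfml3, Col4a1 and the SoxB-type factor gene Sox21. The measure was the root-mean-square difference of log2 profiles over the 10 arrays, each centred on its mean, and it was 0.16, 0.31 and 0.34, beside a median of 1.39 over genes. Olfml3 read 85.8 and 79.3 on Sox17(+) 4 and 5, -5.13 and -4.22 on Sox17(+) 2 and 3 and 128 on Sox17(+) 1. It read 139 and 124 on Sox17(-) 4 and 5 and 7.21 to 8.77 on Sox17(-) 1 to 3, the same order of groups as Foxa1. On Sox17(+) 2 and 3 and Sox17(-) 1 to 3 Olfml3 lay under the background limit. It was thus tested only through the arrays where Foxa1 was high, and its small distance rests in part on background values. Nearest to Foxq1 lay Pdgfra, a receptor gene of primitive endoderm, at 0.30, the diacylglycerol kinase gene Dgkk at 0.58 and Arid5b at 0.60, beside a median of 1.34. Under the background limit lay Foxq1 on Sox17(+) 2, Pdgfra on Sox17(+) 3, Dgkk on Sox17(+) 2 and 3 and Arid5b on Sox17(+) 2 to 4. These distances thus also rest in part on background values. Pdgfra read 45.8 and 38.0 on Sox17(+) 4 and 5, 15.5 and 9.88 on Sox17(+) 2 and 3 and 232 on Sox17(+) 1, against 207 and 207 on Sox17(-) 4 and 5 and 36.5 to 47.3 on Sox17(-) 1 to 3. Like Foxq1 it was lower on each array of the second set than on Sox17(-) 4 and 5 and Sox17(+) 1. The same held for Foxa1, Olfml3, Col4a1 and Sox21. Foxa1 and Foxq1 lay 0.83 from each other. The arrays share array sets and runs, so likeness is a description over 10 arrays.

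**Figure D4:**
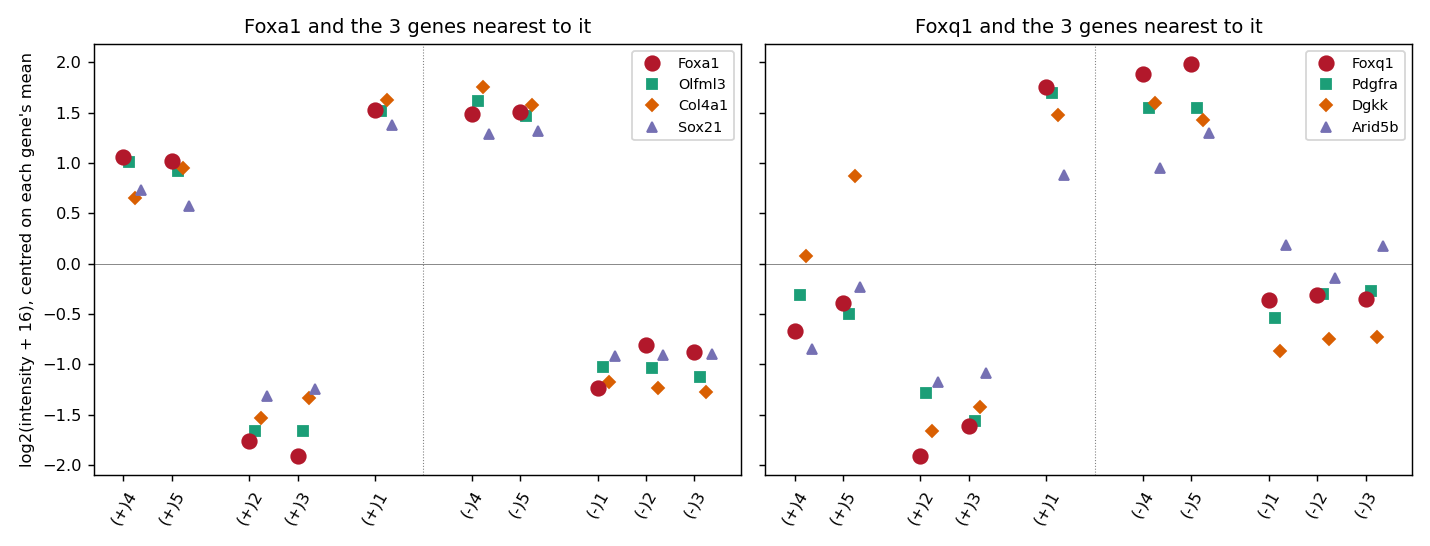
Centred log2(intensity + 16) of Foxa1 (left) and Foxq1 (right) in red with the 3 nearest genes of each, on arrays labelled Sox17(+) left of the dotted line and Sox17(-) right of it. Each point is 1 array. Foxa1 and its nearest genes are above 0 on Sox17(+) 4, 5 and 1 and Sox17(-) 4 and 5, while Foxq1, Pdgfra and Arid5b are below 0 on Sox17(+) 4 and 5. The intensity of Arid5b on Sox17(+) 4 lay under the background limit.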

How the data were processed

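The authors deposited a normalized intensity for each probe on each array, linear and partly below 0, so that background had been subtracted. The 75th percentile of the deposited values had a median of 250 over the arrays. The normalization software: not given in the sources used here. RNA was amplified to biotin-labelled cRNA, per the labels' protocols. A table without normalization, with 20 columns that no label names, was left out. Of 25697 probes 23978 carry 1 gene symbol, 0 several and 1719 none. Values below 0 were set to 0, 16 was added and log2 taken. The background limit is the one-sided 95% point of values below 0 mirrored about 0. Differences were fitted over all tested probes with limma 3.58.1 in R 4.3.3 (lmFit, eBayes, two-sided, Benjamini-Hochberg, threshold 0.05), between labels over 10 arrays and between runs in 1 fit of 4 label and run groups over 9, and the scripts were tested on simulated data. A group with 50% or more of its arrays under the limit, or with its mean there, gives a fold as "at least", with values raised to the limit and no 16 added. Genes are represented by their brightest tested probe. Named are all members, up to 4 called genes of a list by size (the 2 brightest where none is called), and the 3 nearest genes of members spanning at least 1 in log2. Members, lists and run groups were chosen with earlier results of these data known. For arrays, their number limits the precision. Sequences are from RefSeq. Plots used matplotlib 3.10.9 in Python 3.11.15.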

Additional observations from a re-analysis of the deposited data

Results flagged for a closer look

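A pair of dim probes met Dixon's criterion on Sox17(-) 5 only because the other 4 arrays of that label read below 0 and were set to 0, so that any positive value would have met it. The deposited values do not set this array far apart. The Foxa2 probe ILMN_1229325 read 0.101 there and -0.368, -2.85, -9.88 and -10.5 on the others. The Foxd3 probe ILMN_1216212 read 6.17 there, with -4.24 as the next highest and -13.6 as the lowest. Both values lie under the background limit of 10.6. Of 11 groups of 5 arrays examined these 2 met the criterion. Its chance rate of about 1 in 20 does not hold for groups with values set to 0, so the count cannot be read against it.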

How the results depend on the processing

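In run 2 against run 1, Foxa1 and Foxq1 kept direction and call under each label in 11 of 12 alternatives and with each of 9 arrays left out (Foxa1 2.80 to 2.95 under the label Sox17(+) and 2.34 to 2.55 under Sox17(-), Foxq1 1.08 to 1.38 and 2.22 to 2.328); the exception, Sox17(+) 1 kept in run 1, left 0 and 0 genes called. Foxa1, dim in run 1, ranged from 1.501 to 4.13 and 1.55 to 2.99 with the added constant and other alternatives, and Foxq1 under the label Sox17(+) was 0.58 with 64 added and 1.76 with 4. Called probes between the labels, 2919 of 14985, became 549 without a filter, 7313 with array weights, 0 with limma and the array set as a block (724 at an unadjusted p under 0.05) and 0 within run 1 alone (2987 so), 4400 within run 2 alone, 6161 inside run 1 and 5713 inside run 2 in the 4-group fit, 8388 averaged over both, and 14 to 6821 with 1 array left out, fewest without Sox17(+) 4 and most without Sox17(+) 1. Forkhead genes called were 0 with the set block, 0 within run 1 alone, 2 within run 2 alone (Foxa3 not among them), 3 inside run 1, 3 inside run 2 and 3 averaged over both in the 4-group fit, and 0 to 2 with 1 array left out. Under the label Sox17(-), 1387 called probes became 2205 with 64 added, 2175 with a trend, 795 with the replicate block, 148 with Sox17(+) 1 kept and 660 to 1379 with 1 left out. Under the label Sox17(+), 1121 became 564 with the replicate block, 574 with only arrays of that label, 191 with Sox17(+) 1 kept and 573 to 1030. For the run difference to differ by label, 2 became 13 with 4 added, 83 with 64, 36 without a filter, 9 with a stricter limit, 117 with a trend, 0 with at least 2 arrays above the limit (1854 at an unadjusted p under 0.05), 0 with Sox17(+) 1 kept (991 so) and 0 to 2 with 1 left out.

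Some differences turned sign. Foxa1 between the labels, -0.03, became 0.050 with 64 added, 0.26 within run 1 alone, 1.51 with the set block and -0.41 to 0.45 with 1 array left out. Foxq1 became 1.19 with the set block, against -1.14. Foxa3 between runs became -0.028 under the label Sox17(+) with Sox17(+) 1 kept, and -0.10 to 0.21 and -0.043 to 0.0100 with 1 left out. The run difference by label became -0.046 (64 added) and -0.72 (Sox17(+) 1 kept) for Foxa1, and -0.0068 (kept) and -0.077 to 0.23 for Foxa3. The cause was not tested. Title numbers were not taken as pairs. The correlation of deviations from the label means was -0.06 for number 1, that of Sox17(+) 1, and 0.29 to 0.31 for the other 4. These deviations also hold the differences between runs and array sets, so they cannot decide whether title numbers are pairs. With title numbers as a replicate block 3344 probes were called between the labels. Description numbers did not pair the runs (-0.17 to 0.04), and no forkhead call changed with them as a block.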
